A study of Mus musculus with 6 samples.

Results

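The uncoupling proteins and the ADP/ATP carriers are inner membrane proteins that set how a mitochondrion spends its proton gradient, and 5 of their genes were followed by symbol among the 55491 genes of the expression table: *Ucp1*, *Ucp2*, *Ucp3*, *Slc25a4*, and *Slc25a5*. The 5 genes were chosen by name and function with earlier results of these data known, and all 5 reached 10 counts in each library. RNA from inguinal white adipose tissue (IWAT), a subcutaneous fat depot of the mouse, was sequenced as 1 library per mouse from 3 *Ebf2*+/+ and 3 *Ebf2* E165X/+ mice. *Ebf2* encodes a transcription factor of adipocyte precursors and of brown and beige fat. The E165X/+ mice carried 1 copy of a nonsense variant of *Ebf2* that had been knocked into the germline with CRISPR/Cas9, so that every tissue was heterozygous. The *Ebf2*+/+ controls carried no edit, and both genotypes were labelled with the C57BL/6J strain, male sex, and an age of 4 weeks. By the study's supplement, the edit was made in eggs of hybrid mice, and the founders were then bred to C57BL/6J. *Ebf2* itself was measured at 38.3, 41.3, and 37.2 CPM (read counts scaled to a common library size after TMM normalization) in *Ebf2*+/+ mice and at 22.8, 22.9, and 21.1 CPM in E165X/+ mice, and the counts do not show the edit itself.

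UCP1 sits in the mitochondria of brown and beige adipocytes and lets protons flow back without making ATP, so that the energy of fatty acid oxidation is released as heat. UCP2, abundant in immune cells, and UCP3, known mainly from skeletal muscle and brown fat, are close relatives that are not thought to be thermogenic in the same way. The carriers encoded by *Slc25a4*, the main form of heart and skeletal muscle, and *Slc25a5*, the form of many other tissues, exchange cytosolic ADP for mitochondrial ATP and can also leak protons in the presence of fatty acids.

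By their coding sequences, *Slc25a4* and *Slc25a5* were 77.4% identical and *Ucp2* and *Ucp3* 75.4%, whereas *Ucp1* was 62.3% identical to *Ucp2* and 63.4% to *Ucp3*. *Ucp3* (chr7:100472990-100486432, GRCm38, plus strand) and *Ucp2* (chr7:100493337-100502020, plus strand) are neighbours, 6905 bases apart. *Ucp1* lies at chr8:83290352-83298452 on the plus strand, *Slc25a4* at chr8:46206797-46211284 on the minus strand, and *Slc25a5* at chrX:36795651-36798807 on the plus strand. All are protein-coding genes in the GENCODE M21 annotation. The promoters of the 3 uncoupling protein genes are shown because *Ucp1* and *Ucp3* were lower in every E165X/+ library and the neighbour *Ucp2* was not. Each runs from 250 bases before to 50 bases after the RefSeq start (GRCm38.p6), 5′ to 3′ on the plus strand, with the motif matches named next in capitals, of which the *Ucp3* window has none.

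Ucp1, chr8:83290098-83290397: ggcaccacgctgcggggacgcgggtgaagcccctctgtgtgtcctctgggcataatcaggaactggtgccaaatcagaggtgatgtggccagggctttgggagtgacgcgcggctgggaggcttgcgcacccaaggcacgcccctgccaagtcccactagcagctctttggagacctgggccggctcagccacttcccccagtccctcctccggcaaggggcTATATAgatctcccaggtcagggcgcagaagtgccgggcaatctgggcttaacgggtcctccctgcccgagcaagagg
Ucp2, chr7:100493108-100493407: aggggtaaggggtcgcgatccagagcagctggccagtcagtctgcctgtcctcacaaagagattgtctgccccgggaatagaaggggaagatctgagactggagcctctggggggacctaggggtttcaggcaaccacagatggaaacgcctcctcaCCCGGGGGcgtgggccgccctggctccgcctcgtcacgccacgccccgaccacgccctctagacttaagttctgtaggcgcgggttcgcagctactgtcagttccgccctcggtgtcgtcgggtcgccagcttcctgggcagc
Ucp3, chr7:100472741-100473040: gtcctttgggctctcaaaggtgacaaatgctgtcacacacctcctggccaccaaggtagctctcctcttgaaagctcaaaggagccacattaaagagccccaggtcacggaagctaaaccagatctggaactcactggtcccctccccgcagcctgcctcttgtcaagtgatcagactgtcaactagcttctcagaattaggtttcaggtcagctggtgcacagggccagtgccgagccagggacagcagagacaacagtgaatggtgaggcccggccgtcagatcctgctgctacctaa

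The letters given here were searched on both strands, and all 5 genes had a RefSeq promoter. The *Ucp1* promoter holds TATATA with its first base at position -28 from the start, a match found in 5.67% of all 32851 promoters of this length. CCCNNGGG, a loose form of the core of the site bound by EBF factors, was found at position -93 of the *Ucp2* promoter and in 13.7% of all promoters, but not in these letters in the window of *Ucp1*, *Ucp3*, *Slc25a4*, or *Slc25a5*. The *Ucp2* match falls outside the narrower EBF motif that the study names. The *Slc25a5* window holds TATATA at position 24 after the start. No window of the 5 genes holds TATAAA (13.6% of all promoters), the cAMP response element TGACGTCA (1.79%), or the direct repeat read by PPAR receptors, AGGTCA repeated after 1 base of any kind (0.0396%). *Ucp3* had the fewest CG dinucleotides of the 5 windows, 5 against 15 in *Ucp1*, 18 in *Slc25a5*, 21 in *Ucp2*, and 25 in *Slc25a4*.

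Total counts ran from 106820505 to 135039488 per library, with 3 mice per genotype. The part of counting error in the spread of these genes between mice was not tested. The tissue carried the defining genes of fat in every library: 10 adipocyte markers, led by *Lpl*, summed to 23100, 24100, and 20800 CPM in *Ebf2*+/+ mice and to 22200, 20600, and 14200 CPM in E165X/+ mice. The third E165X/+ library stood apart. Its 10 skeletal muscle markers, led by the myosin gene *Myh4*, summed to 48600 CPM or 4.61% of its counts, against 3480 and 831 CPM in the other E165X/+ libraries and 2040, 8320, and 3230 CPM in the *Ebf2*+/+ libraries. No adipocyte or muscle marker was at 0 in any library. Since *Ucp3* and *Slc25a4* are also genes of muscle, results are given with and without this library. In whole tissue, fewer cells of a type and less RNA per cell cannot be told apart.

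**Figure D1:**
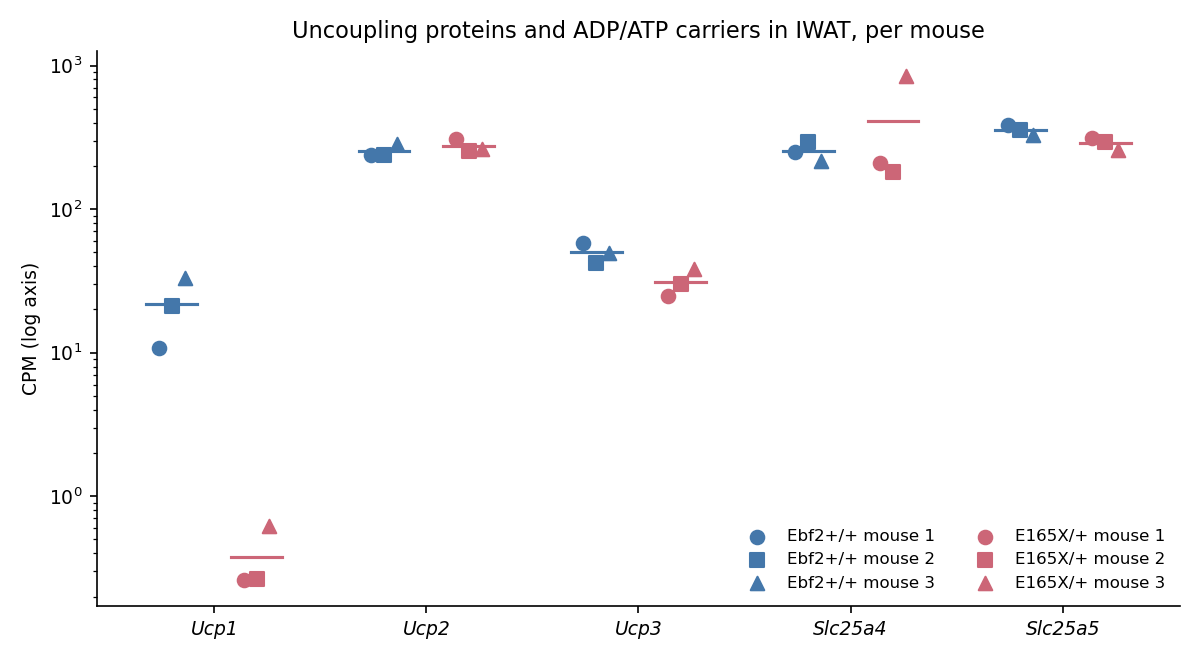
CPM of the 5 genes (log axis) in each of 3 *Ebf2*+/+ mice (blue) and 3 E165X/+ mice (red), with a line at each mean and the symbol shape giving the mouse. *Ucp1* lies between 10.8 and 33.0 CPM in *Ebf2*+/+ mice and at or below 0.617 CPM in E165X/+ mice, and *Slc25a4* of the third E165X/+ mouse lies apart at 846 CPM.

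*Ucp1*, the thermogenic member, was the lowest of the 5 genes in E165X/+ IWAT and differed most from the control. It was measured at 10.8, 21.3, and 33.0 CPM in the *Ebf2*+/+ mice and at 0.259, 0.264, and 0.617 CPM in the E165X/+ mice, from 1303, 2245, and 4087 against 30, 33, and 79 counts. The genotypes did not overlap: the lowest *Ebf2*+/+ mouse had 17.6 times the CPM of the highest E165X/+ mouse. *Ucp1* also varied most within the controls, by 3.04 times between the lowest and the highest *Ebf2*+/+ mouse, compared with 1.18 to 1.38 times for the other 4 genes. The mean was 21.7 ± 11.1 CPM in *Ebf2*+/+ mice and 0.380 ± 0.205 CPM in E165X/+ mice (SD, n = 3 each), so that 1.75% of the control level was present. The log2 fold change was -5.83 (SE 0.55, 95% interval -7.12 to -4.54), and none of the 18905 genes that reached 10 counts in each library was lower. By edgeR the adjusted *P* value was 0.0596, short of the threshold of 0.05, whereas DESeq2 gave 4.87e-18 on the same counts. Without the third E165X/+ library the log2 fold change was -6.37 with an adjusted *P* of 0.0132 from edgeR. With the muscle marker level of each library as a covariate it was -6.03 with an adjusted *P* of 0.00423.

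Scaled to fat cell RNA, *Ucp1* again stood apart by genotype. Per 1000 counts of the adipocyte markers there were 0.469, 0.884, and 1.58 *Ucp1* counts in *Ebf2*+/+ mice and 0.0117, 0.0128, and 0.0435 in E165X/+ mice. The genotypes did not overlap on this scale either (difference of means -0.956, two-sided exact permutation test, *P* = 0.1, the smallest value that 3 against 3 mice can give). The 7 markers of brown or beige adipocytes, led by *Cidea* and including *Ucp1*, summed to 156, 207, and 201 CPM in *Ebf2*+/+ mice and to 31.7, 37.1, and 74.5 CPM in E165X/+ mice, and none was at 0 in any library. The log2 fold changes of all 7 were below 0, as were 47.9% of those of all genes tested, with a median of -1.65. The genotypes overlapped for 4 of the 7 (*Elovl3*, *Cox7a1*, *Cox8b*, and *Dio2*). For *Cox7a1*, *Cox8b*, and *Dio2* the overlap came from the third E165X/+ library alone, at 21.7, 32.8, and 2.86 CPM. The lowest *Ebf2*+/+ values were 12.5, 31.4, and 2.78 CPM. In the other E165X/+ mice *Cox7a1* was at 4.14 and 2.46 CPM, *Cox8b* at 13.6 and 17.7 CPM, and *Dio2* at 1.73 CPM in each. The log2 fold change of *Cox7a1* was -2.19 without the third E165X/+ library and -1.53 with the muscle covariate. What the number of brown or beige adipocytes contributed to the *Ucp1* value was not tested.

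*Ucp3* was lower in E165X/+ mice by a smaller amount. Its levels were 58.3, 42.3, and 49.6 CPM in *Ebf2*+/+ mice and 24.9, 30.2, and 38.1 CPM in E165X/+ mice. All E165X/+ mice were below all *Ebf2*+/+ mice, though the nearest pair, 42.3 and 38.1 CPM, differed by only 1.11 times. The means were 50.1 ± 8.03 and 31.1 ± 6.62 CPM (SD, n = 3 each), or 62.0% of the control. The log2 fold change of -0.69 (SE 0.17, 95% interval -1.09 to -0.29) had an unadjusted *P* of 0.00452 and an adjusted *P* of 0.783 from edgeR, and DESeq2 called it with an adjusted *P* of 0.0191. The highest E165X/+ value belonged to the library rich in muscle markers, and without that library the log2 fold change was -0.86 (SE 0.15, adjusted *P* = 0.225 from edgeR). With the muscle covariate it was -0.72 (SE 0.16, adjusted *P* = 0.393). Scaled to the muscle markers the gene gave 28.6, 5.08, and 15.4 counts per 1000 marker counts in *Ebf2*+/+ mice and 7.17, 36.4, and 0.783 in E165X/+ mice, and the genotypes overlapped (difference -1.58, two-sided exact permutation test, *P* = 0.9). The summed markers ran from 831 to 48600 CPM, a far wider range than that of *Ucp3*. The ratio thus mostly follows the markers, and its overlap cannot decide whether *Ucp3* differed by genotype. An annotated antisense gene, *Gm10603*, overlaps *Ucp3* on the opposite strand with 355 to 456 counts per library, against 2882 to 7007 for *Ucp3*, and whether the counting used strand is not given in the sources used here.

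*Ucp2* differed from its neighbour *Ucp3*, since its genotypes overlapped. It was measured at 237, 240, and 286 CPM in *Ebf2*+/+ mice and at 307, 252, and 264 CPM in E165X/+ mice. The highest value came from an E165X/+ mouse, and the third *Ebf2*+/+ mouse lay above the other E165X/+ mice. The means were 254 ± 27.4 and 274 ± 28.9 CPM (SD, n = 3 each). The log2 fold change was 0.11 (SE 0.12, adjusted *P* = 0.804 from edgeR), and its 95% interval of -0.17 to 0.39 leaves out a change as large as that of *Ucp1*. Macrophages are a known site of *Ucp2*, and their 9 markers, led by *Lyz2*, summed to 1490 to 1900 CPM in *Ebf2*+/+ mice and 1820 to 2010 CPM in E165X/+ mice, with none at 0 in any library. *Ucp2* gave 125, 161, and 151 counts per 1000 macrophage marker counts in *Ebf2*+/+ mice and 161, 138, and 131 in E165X/+ mice, with full overlap (difference -2.18, two-sided exact permutation test, *P* = 1.0). *Dnajb13* overlaps *Ucp2* on the opposite strand, with 217 to 418 counts per library against 25306 to 35493 for *Ucp2*.

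*Slc25a4* gave the widest spread of the set within E165X/+ mice. It was at 251, 292, and 215 CPM in *Ebf2*+/+ mice and at 210, 180, and 846 CPM in E165X/+ mice. The value of 846 CPM came from the library rich in muscle markers, and the other E165X/+ mice lay below all *Ebf2*+/+ mice. Over all 6 mice the log2 fold change was 0.71 (SE 0.55, 95% interval -0.58 to 2.0, adjusted *P* = 0.783 from edgeR), with means of 253 ± 38.7 and 412 ± 376 CPM (SD, n = 3 each). Without the third E165X/+ library its sign turned, to -0.37 (SE 0.15, 95% interval -0.71 to -0.032, adjusted *P* = 0.861 from edgeR). In that fit all 10 skeletal muscle markers were below 0 too, with a median of -1.09. With the muscle covariate the log2 fold change of *Slc25a4* was 0.18 (SE 0.20, adjusted *P* = 0.911 from edgeR). Per 1000 muscle marker counts there were 123, 35.1, and 66.6 *Slc25a4* counts in *Ebf2*+/+ mice and 60.6, 217, and 17.4 in E165X/+ mice, lowest in the library with the most muscle markers (difference 23.4, two-sided exact permutation test, *P* = 0.9). The markers ranged far more than *Slc25a4*, so this ratio too cannot decide on a difference by genotype.

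**Figure D2:**
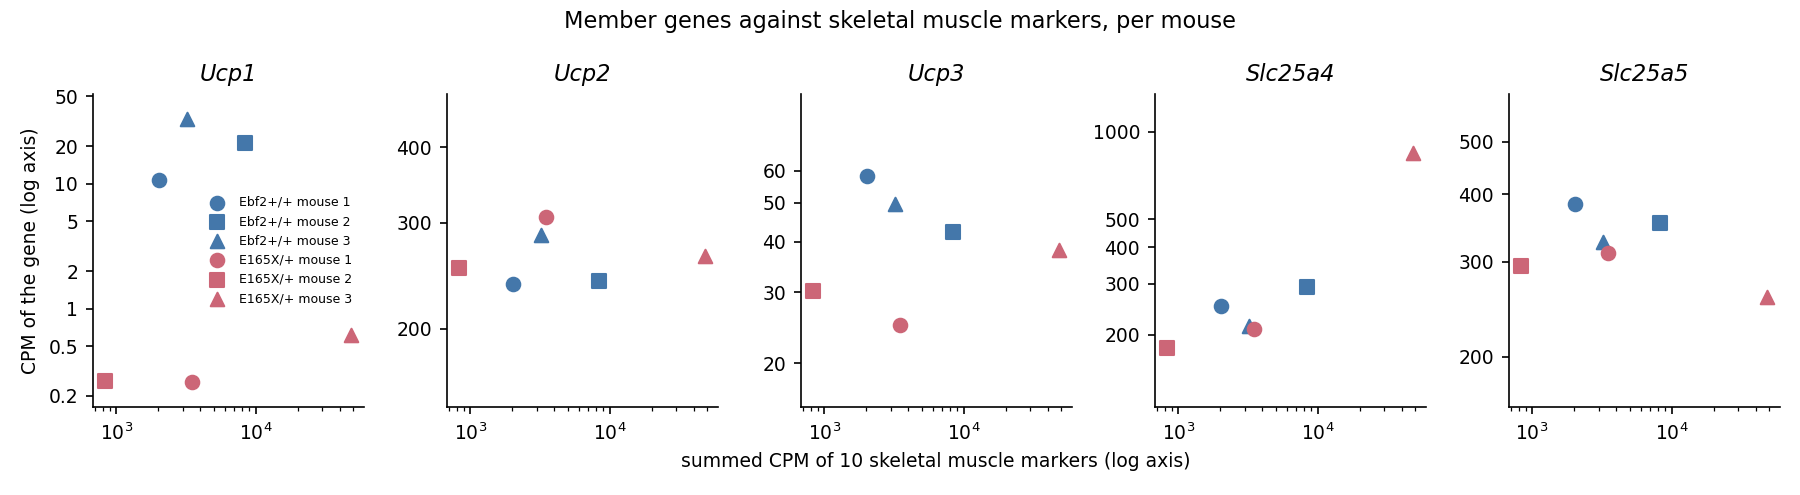
CPM of each gene against the summed CPM of 10 skeletal muscle markers in the same library, both on log axes, for 3 *Ebf2*+/+ mice (blue) and 3 E165X/+ mice (red). The third E165X/+ mouse, at 48600 CPM of markers, is the highest point for *Slc25a4*, at 846 CPM, and the lowest for *Slc25a5*, at 258 CPM, while all *Ucp1* points of E165X/+ mice lie under those of *Ebf2*+/+ mice at any marker level.

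*Slc25a5*, the other carrier, was lower in E165X/+ mice by the least of the 3 genes without overlap. It was measured at 384, 354, and 327 CPM in *Ebf2*+/+ mice and at 312, 294, and 258 CPM in E165X/+ mice. The lowest *Ebf2*+/+ mouse was only 1.05 times the highest E165X/+ mouse, so that the groups were apart by less than either group's own range. The means were 355 ± 28.6 and 288 ± 27.8 CPM (SD, n = 3 each), or 81.2% of the control. The 10 adipocyte markers were all below 0 in the same fit, with a median log2 fold change of -0.28, which was -0.14 with 2 of 10 above 0 when the third E165X/+ library was left out, and their part in the *Slc25a5* value was not tested. The log2 fold change was -0.30 (SE 0.11, 95% interval -0.57 to -0.032), with an unadjusted *P* of 0.0327, an adjusted *P* of 0.783 from edgeR, and 0.262 from DESeq2. Leaving out the third E165X/+ library gave -0.23 (SE 0.11, adjusted *P* = 0.861), and the muscle covariate gave -0.29 (SE 0.11, adjusted *P* = 0.802). The genome holds 11 near copies of *Slc25a5* of at least 85% identity in the table, such as *Gm5560* at 98.3% over 887 bases with 52 to 80 counts, so that reads could be split among them. Their summed counts were 0.282% to 0.325% of those of *Slc25a5*. Of the other members, *Ucp2* shares such a stretch only with the overlapping *Dnajb13*, and *Ucp1*, *Ucp3*, and *Slc25a4* have none.

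**Figure D3:**
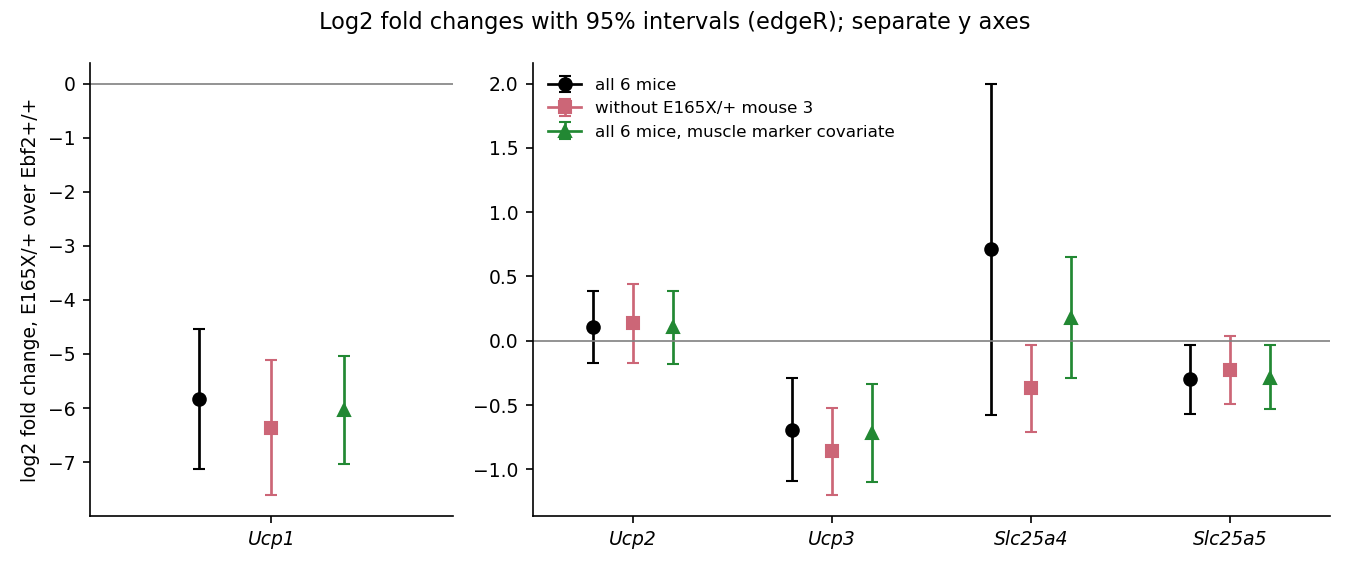
Log2 fold changes of E165X/+ over *Ebf2*+/+ mice from edgeR, with 95% intervals, from all 6 mice (black), without the third E165X/+ mouse (red), and from all 6 mice with the muscle marker level as a covariate (green); *Ucp1* has its own y axis. *Ucp1* lies between -6.37 and -5.83 and *Ucp3* between -0.86 and -0.69, whereas *Slc25a4* moves from 0.71 to -0.37 without the third E165X/+ mouse.

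Over the set, edgeR called 0 of 5 genes at an adjusted *P* under 0.05 and a fold change above 1.5, with 0.00918% of 32664 genes tested called. DESeq2 called 2 of 5, *Ucp1* and *Ucp3*, both lower, with 0.3% of genes called in either direction and 0.263% called lower. These shares are of all 32664 genes, some of which got no adjusted *P* from DESeq2 and could not be called. The same holds for the DESeq2 shares given for the lists below. At an unadjusted *P* under 0.05 from edgeR, 3 of 5 were lower (*Ucp1*, *Ucp3*, and *Slc25a5*), where 3.09% of all genes tested were, and 0 of 5 were higher, where 1.68% were (4.77% in either direction). The same 3 genes had every E165X/+ mouse below every *Ebf2*+/+ mouse, as did 6.78% of the 18905 genes that reached 10 counts in each library, while 6.66% lay above and 13.4% did not overlap in either direction. Ranked by *P* among the genes tested, *Ucp1* was number 5, *Ucp3* number 172, and *Slc25a5* number 1014. The median log2 fold change of the 5 genes was -0.30, against 0.014 for all genes tested.

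The make-up of the family differed between the genotypes. Of all counts from uncoupling proteins, *Ucp1* made 3.54%, 7.01%, and 8.95% in *Ebf2*+/+ mice and 0.0781%, 0.0936%, and 0.204% in E165X/+ mice. *Ucp3* made 19.1%, 13.9%, and 13.5% in *Ebf2*+/+ mice and 7.50%, 10.7%, and 12.6% in E165X/+ mice. *Ucp2* took the rest, 77.4% to 79.1% in *Ebf2*+/+ mice and 87.2% to 92.4% in E165X/+ mice, without overlap on any of the 3 shares. Since the 3 shares make up the whole, they are not separate results. The higher *Ucp2* share goes with the lower *Ucp1* and *Ucp3*, while the CPM of *Ucp2* itself overlapped between the genotypes. Of the counts of the carrier pair, *Slc25a4* made 39.5%, 45.2%, and 39.7% in *Ebf2*+/+ mice and 40.2%, 38.0%, and 76.6% in E165X/+ mice. The carrier share of the first E165X/+ mouse thus lay inside the range of the controls, that of the second just under it, and only the muscle-rich library was far outside.

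**Figure D4:**
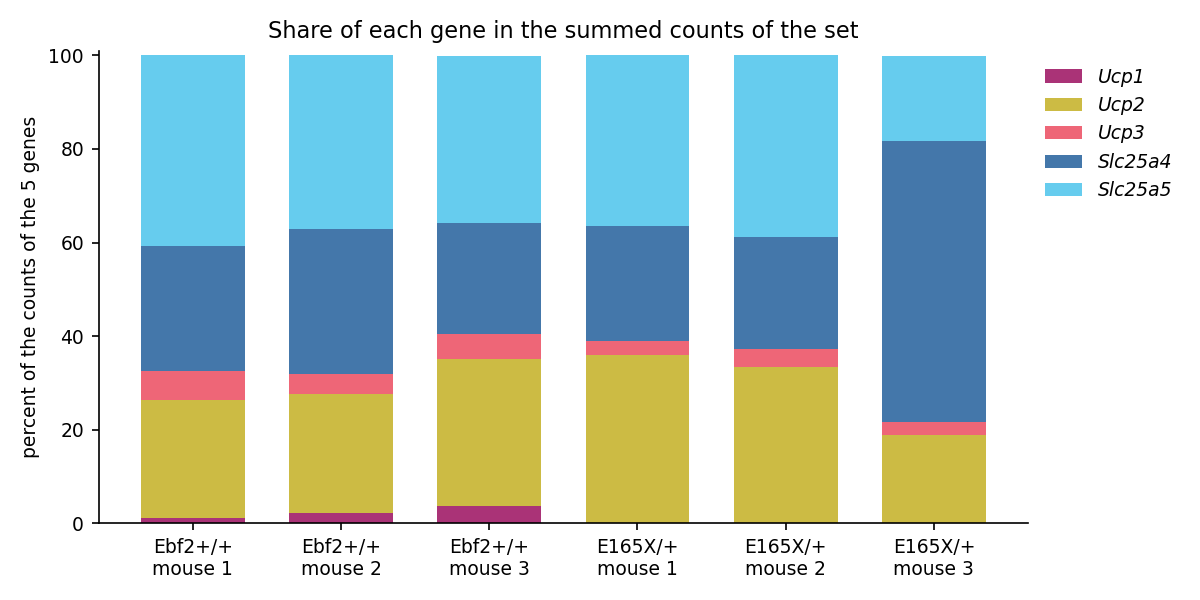
Share of each gene in the summed counts of the 5 genes, in percent, for each of the 6 mice, stacked to 100%. *Ucp1*, at the foot of each bar, makes 1.15% to 3.62% in *Ebf2*+/+ mice and 0.0303% to 0.0439% in E165X/+ mice, too thin to see there, and *Slc25a4* makes 60.1% in the third E165X/+ mouse against 23.6% to 30.8% in the others.

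Levels of different genes were compared per kilobase of annotated exon. In *Ebf2*+/+ mice *Slc25a5* was highest at 216 ± 17.4 CPM per kilobase, followed by *Slc25a4* at 107 ± 16.4, *Ucp2* at 36.4 ± 3.93, *Ucp3* at 16.0 ± 2.56, and *Ucp1* at 13.3 ± 6.77 (SD, n = 3). On this scale only the last pair, *Ucp3* and *Ucp1*, overlapped between mice. In E165X/+ mice *Ucp1* was lowest at 0.232 ± 0.125 CPM per kilobase and no longer overlapped *Ucp3* at 9.91 ± 2.11, while *Slc25a4* at 175 ± 160 and *Slc25a5* at 175 ± 16.9 overlapped. The exon length of *Ucp2*, 6989 bases from 11 transcripts, lowers its value on this scale. Without division by length *Ucp2* and *Slc25a4* overlapped in *Ebf2*+/+ mice, at 254 ± 27.4 and 253 ± 38.7 CPM, while *Ucp3* at 42.3 to 58.3 CPM and *Ucp1* at 10.8 to 33.0 CPM did not. Which scale suits these libraries is uncertain, since the sources name library kits of different kinds.

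Within each genotype the mice stood in opposite order for *Ucp1* and *Slc25a5*: the mouse with the least *Ucp1* had the most *Slc25a5*, and the mouse with the most *Ucp1* had the least *Slc25a5*. The first and second E165X/+ mice had 30 and 33 *Ucp1* counts, too close to order them firmly. The third E165X/+ mouse, with the most *Ucp1* and the least *Slc25a5* of its genotype, is the muscle-rich library. The deviations of log2 CPM from the genotype means had a Pearson r of -0.96 between *Ucp1* and *Slc25a5* over the 6 libraries, as a description of few libraries that also share their depth. This was the strongest such r of all pairs of members. For *Ucp1* and *Ucp3* r was 0.85 over the 6 libraries and 0.18 for the deviations. Among 18905 genes, those most like *Ucp1* over the 6 libraries were *Xrcc6* (r = 0.995), *Cidea* (0.994), *Xist*, *Upp2*, and *A230107N01Rik*. *Slc25a4* was most like *Homer1* (0.998), *Rcan1*, *Rab10*, *Mcu*, and *Zfp641*, of which *Mcu* encodes the pore of the mitochondrial calcium uniporter. *Ucp3* was followed most closely by *Ubox5* (0.993), *Fdft1*, *Gm37397*, *Hddc2*, and *Gpd2*. For *Ucp2* they were *Gm29562* (0.988), *Gm5421*, *8430406P12Rik*, *Nrxn2*, and *Ppbp*, and for *Slc25a5* they were *Mtmr2* (0.997), *Plpp6*, *Lap3*, *Mapk3*, and *Hmgcs1*.

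Other carriers of the same gene family were examined next, 11 genes that include the brain-type uncoupling relatives and the ATP-Mg/phosphate carriers. edgeR and DESeq2 called 0 of 11 (0.00918% and 0.3% of all genes), and 2 were lower at an unadjusted *P* under 0.05 from edgeR, where 3.09% of all genes were. *Slc25a23*, an ATP-Mg/phosphate carrier, was at 78.2, 92.2, and 87.0 CPM in *Ebf2*+/+ mice and at 67.7, 66.4, and 59.5 CPM in E165X/+ mice (log2 fold change -0.41, SE 0.089). Its adjusted *P* was 0.625 by edgeR and 0.0191 by DESeq2, with a fold change under the threshold. *Slc25a42*, which carries coenzyme A, was at 24.3, 29.6, and 35.5 CPM against 21.3, 21.4, and 21.8 CPM (-0.47, SE 0.13, adjusted *P* = 0.783 from edgeR). The brain-type relatives *Slc25a14* and *Slc25a27* had all E165X/+ mice above all *Ebf2*+/+ mice by little, 3.68 to 4.04 against 3.41 to 3.43 CPM and 2.73 to 3.94 against 2.60 to 2.65 CPM, both with an adjusted *P* of 0.783 from edgeR, and 6.66% of genes lay above in this way. *Slc25a30* (log2 fold change 0.065, SE 0.097), another relative of the uncoupling proteins, and the phosphate carrier *Slc25a3* (0.010, SE 0.13), which supplies ATP synthase, had values near 0. *Slc25a31*, the ADP/ATP carrier of testis, had 4 to 16 counts per library and got no adjusted *P* from DESeq2. The list's median was 0.010, with 5 genes lower and 6 higher.

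Of 28 brown and beige thermogenic genes, 23 had a log2 fold change below 0 and 5 above. edgeR called 1 of 28 (0.00918% of all genes), *Cidea*, which encodes a lipid droplet protein of brown fat and fell from 82.4, 103, and 106 CPM to 7.97, 9.61, and 13.2 CPM (log2 fold change -3.24, SE 0.20, adjusted *P* = 0.00462). Thus *Ucp1* was at 1.75% and *Cidea* at 10.6% of the control mean. DESeq2 called 8 of 28, all lower, where 0.263% of all genes tested were called lower. *Cpt1b* got no adjusted *P* from DESeq2 over all 6 mice and could not be called by it. At an unadjusted *P* under 0.05 from edgeR 15 of 28 were lower and 1 higher, against 3.09% and 1.68% of all genes tested. *Pank1*, a kinase of coenzyme A synthesis, was at 46.3% of control (log2 fold change -1.11, SE 0.12). Its adjusted *P* was 0.101 from edgeR and 1.39e-13 from DESeq2, which called it. The proton channel gene *Otop1* was at 31.9% (-1.65, SE 0.23) and the fatty acid receptor gene *Ppara* at 36.3% (-1.46, SE 0.25). Their adjusted *P* values were 0.229 and 0.377 from edgeR, and 8.92e-11 and 6.34e-07 from DESeq2, which called both. The coactivator *Ppargc1a*, a known inducer of *Ucp1*, was at 92.9% with overlapping genotypes (-0.11, SE 0.22, adjusted *P* = 0.913 from edgeR). Its levels were 9.53, 13.1, and 13.2 CPM in *Ebf2*+/+ mice and 9.28, 9.31, and 14.7 CPM in E165X/+ mice. The value of 14.7 CPM came from the muscle-rich library. Without that library the log2 fold change of *Ppargc1a* was -0.36 (SE 0.17, adjusted *P* = 0.861 from edgeR). With the muscle covariate it was -0.19 (SE 0.14, adjusted *P* = 0.896). *Cited1*, a beige marker, was the 1 higher gene, at 3.76, 3.72, and 2.23 CPM against 13.0, 6.38, and 3.44 CPM (1.23, SE 0.46, adjusted *P* = 0.783). The median of the list was -0.51, against 0.014 for all genes tested, of which 47.9% had a value below 0. Without the third E165X/+ library edgeR called 4 (*Cidea*, *Cpt1b*, *Ebf2*, and *Pank1*, with 0.0343% of genes called). With the muscle covariate it called 5 (*Cidea*, *Cox7a1*, *Ebf2*, *Otop1*, and *Pank1*, with 0.0612%). *Ebf2*, counted in both of these fits and among the 8 of DESeq2, is the edited gene that defines the groups. In the fit without that library all 10 skeletal muscle markers were below 0 too, with a median of -1.09. *Cpt1b* was at 29.2, 46.9, and 42.5 CPM in *Ebf2*+/+ mice and at 8.16, 4.92, and 71.6 CPM in E165X/+ mice. Its log2 fold change was -0.48 over all 6 mice and -2.6 without that library. With the covariate it was -1.74 (adjusted *P* = 0.102 from edgeR). The part of muscle in these values was not tested further.

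Of 22 genes of the adrenergic signal and of the fatty acid release that activates UCP1, 17 had a log2 fold change below 0 and 5 above, with a median of -0.21, which was -0.073 without the third E165X/+ library. edgeR and DESeq2 called 0 of 22 (0.00918% and 0.3% of all genes), and 2 were lower at an unadjusted *P* under 0.05 from edgeR, where 3.09% of all genes tested were. *Adrb1*, a beta-adrenergic receptor, was at 5.36, 5.22, and 2.86 CPM in *Ebf2*+/+ mice and at 2.98, 1.69, and 2.02 CPM in E165X/+ mice (log2 fold change -1.01, SE 0.31, adjusted *P* = 0.783 from edgeR). *Adrb3*, the main beta-adrenergic receptor of adipocytes, was at 209, 277, and 209 CPM against 220, 161, and 127 CPM (-0.45, SE 0.21, adjusted *P* = 0.783, and -0.28 without the third E165X/+ library). The lipase gene *Pnpla2* had a log2 fold change of -0.49 (SE 0.21) and the protein kinase A gene *Prkaca* one of -0.34 (SE 0.11), at the same adjusted *P*. Adipocyte markers, 4 of which are also in this list, were lowest in the muscle-rich library, and their part in these values was not tested.

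The partners of the ADP/ATP carriers are the ATP synthase, the outer membrane channels, and the kinases that use or buffer ATP. Of 20 genes, edgeR and DESeq2 called 0 (0.00918% and 0.3% of all genes), and 4 were lower at an unadjusted *P* under 0.05 (3.09% of all genes tested), among them *Tspo* of the outer membrane (log2 fold change -0.36, SE 0.11), the adenylate kinase gene *Ak3* (-0.27, SE 0.10), and the ATP synthase subunit gene *Atp5d* (-0.35, SE 0.14), all at an adjusted *P* of 0.783 by edgeR. The highest values belonged to muscle genes, and, like *Slc25a4*, they came from the third E165X/+ library: *Ckmt2*, a mitochondrial creatine kinase of muscle, was at 10.7, 2.72, and 199 CPM in E165X/+ mice and at 5.91, 27.9, and 9.47 CPM in *Ebf2*+/+ mice. Over all 6 mice 14 of 20 genes were lower, with a median of -0.13. Without that library 19 of 20 were lower, 10 of them at an unadjusted *P* under 0.05 where 3.54% of all genes tested were, and the median was -0.35. In that fit all 10 skeletal muscle markers, of which *Ckm* is also in this list, were below 0 too, with a median of -1.09. With the muscle covariate 16 of 20 genes were below 0, 6 of them at an unadjusted *P* under 0.05 where 3.59% of all genes tested were, and the median was -0.17. The part of muscle in these values was not tested further. The ATP synthase inhibitor gene *Atpif1* was at 94.6% of control (-0.081, SE 0.11, adjusted *P* = 0.846 over all 6 mice).

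Defence against reactive oxygen, which uncoupling is known to limit, had 10 of 12 genes below 0, as were 47.9% of all genes tested, and a median of -0.26. The list is not confined to enzymes of mitochondria. In the same fit the 10 adipocyte markers were all below 0 with a median of -0.28 and the 6 endothelial markers with a median of -0.24, and their part in these values was not tested. Without the third E165X/+ library the reactive oxygen list again had 10 of 12 genes below 0 and a median of -0.26, while the medians were -0.14 for the adipocyte markers (8 of 10 below 0) and -0.13 for the endothelial markers (5 of 6 below 0). edgeR and DESeq2 called 0 of 12 at both thresholds (0.00918% and 0.3% of all genes), and 6 were lower at an unadjusted *P* under 0.05, where 3.09% of all genes tested were. The glutathione peroxidase gene *Gpx1* was at 242, 232, and 233 CPM in *Ebf2*+/+ mice and at 201, 194, and 195 CPM in E165X/+ mice (log2 fold change -0.26, SE 0.078). Its adjusted *P* was 0.783 by edgeR and 0.0226 by DESeq2, short of the fold threshold. *Prdx5* (-0.32, SE 0.097), *Sod1* (-0.36, SE 0.11), and *Txnrd2* (-0.26, SE 0.094) had the same adjusted *P* from edgeR.

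**Figure D5:**
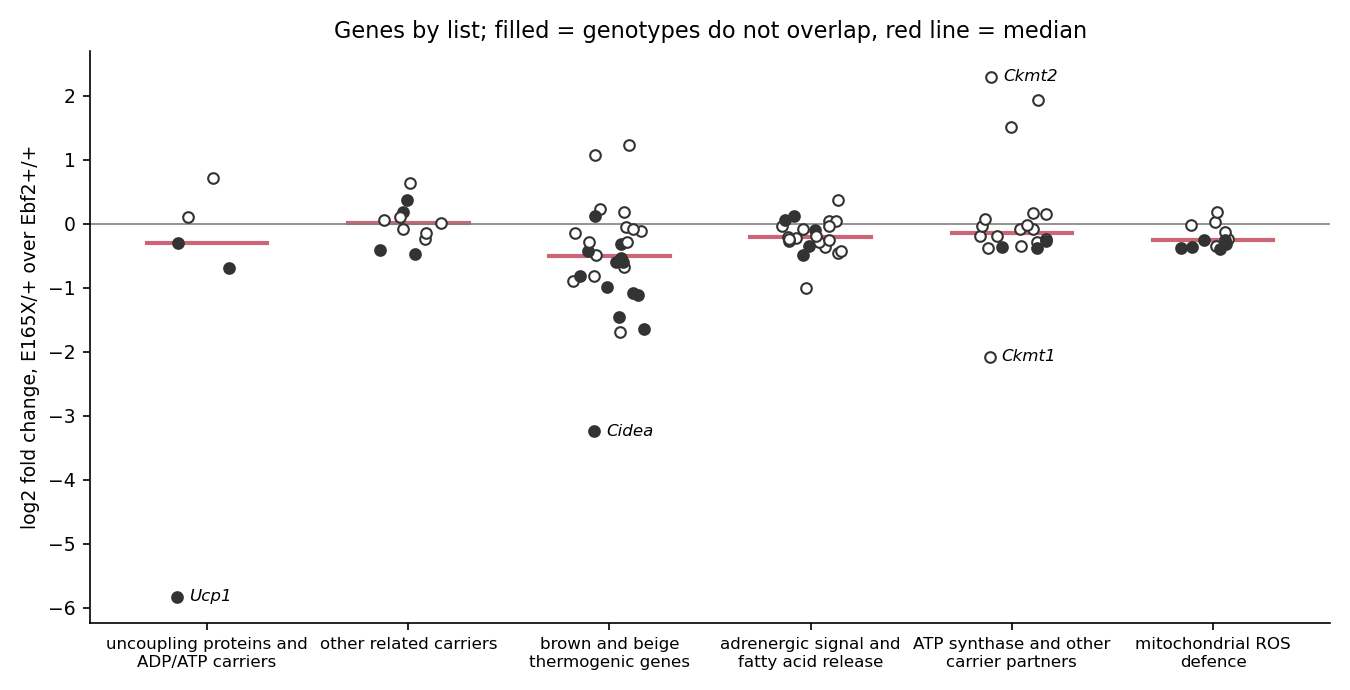
Log2 fold changes of E165X/+ over *Ebf2*+/+ mice (edgeR) for the 5 genes and for 5 lists of related genes, 1 point per gene, filled where the genotypes do not overlap, with a red line at each list's median. *Ucp1* at -5.83 is the lowest point and *Cidea* at -3.24 the next, and the medians lie between -0.51 and 0.010.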

How the data were processed

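RNA from IWAT of 3 *Ebf2*+/+ and 3 *Ebf2* E165X/+ male mice was sequenced as 1 library per mouse. The authors deposited RSEM expected counts per gene, not scaled for library size, and all 332946 values were whole numbers. The submitters' processing notes name cutadapt 4.8, STAR 2.7.8a, RSEM 1.3.3, and GRCm38. The labels name an NEB kit and the study's supplement 3′ libraries.

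Genes that had 1 or more counts in a library were tested with edgeR 4.0.16 (R 4.3.3, TMM, quasi-likelihood test, Benjamini-Hochberg adjustment over all genes), called at an adjusted *P* under 0.05 and a fold change above 1.5, as were those from DESeq2 1.42.0. CPM used TMM library sizes, with a prior count of 2 for logarithms. Marker ratios were compared by exact permutation tests. The edgeR, DESeq2, and limma-voom tests were checked on simulated counts, and the permutation tests were not. Alternatives were DESeq2, limma-voom 3.58.1, other filters and size factors, mitochondrially encoded genes left out, a replicate block, no fold threshold, the muscle covariate, each library left out, a log scale and leading markers left out for ratios.

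The 5 members and all lists were chosen with earlier results of these data known. Named genes were the members, up to 4 genes per list and direction with the lowest *P*, 10 further genes, markers, copies, and the 5 genes most like each member, and *Cpt1b* was added after its values were seen. Older symbols of 5 ATP synthase genes were matched through RefSeq. Annotation came from GENCODE M21, which holds 55141 of 55491 identifiers, and copies from blastn 2.17.0 (at least 85% identity over 200 bases). No protein sequences were used here, and 1 gene that the naming rule selects is not reported here.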

Additional observations from a re-analysis of the deposited data

How the results depend on the processing

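The number of genes called by edgeR over all genes was 3. It was 98 and 92 with DESeq2 (with and without independent filtering), 20 with the muscle covariate, and 1 to 11 with single mice left out (1 without the second *Ebf2*+/+ mouse, 11 without the third E165X/+ mouse). For the brown and beige list, 1 gene became 8 and 8 with DESeq2, 5 with the covariate, and 0 to 4 with single mice left out (0 without the second *Ebf2*+/+ mouse). The other 4 lists had 0 calls under all 16 alternatives.

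*Ucp1* was negative under all 16 alternatives and passed both thresholds in 5: DESeq2 (-5.84, adjusted *P* = 4.87e-18 and 9.83e-18), the covariate (-6.03, 0.00423), the block, and without the third E165X/+ mouse (-6.37, 0.0132). With single mice left out it ran from -6.37 to -5.42. *Ucp3* ran from -0.86 to -0.55 and passed only with DESeq2 (-0.70, adjusted *P* = 0.0191 and 0.0367). *Slc25a5* ran from -0.38 to -0.23, *Ucp2* from 0.020 to 0.18, and *Slc25a4* from -0.37, without the third E165X/+ mouse, to 1.06.

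With the replicate number as a block, *Ucp1* was at -5.82 (adjusted *P* = 0.0255 from edgeR) and no other member was called. The numbers did not pair the mice: same-numbered mice had correlations of 0.153, -0.278, and -0.162 between their deviations.

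The sign of the *Ucp1* ratio was the same under all 8 alternatives, and those of the other ratios were not. With single mice left out, the difference in *Ucp3* per 1000 muscle marker counts ran from -12.4 to 5.42 (4.55, 2.23, and 5.42 without *Ebf2*+/+ mouse 1, E165X/+ mouse 1, and E165X/+ mouse 3), that of *Slc25a4* from -35.9 (without E165X/+ mouse 2) to 63.9, and that of *Ucp2* per 1000 macrophage marker counts from -12.4 to 5.50 (5.50, 0.359, 0.346, and 4.09 without *Ebf2*+/+ mice 2 and 3 and E165X/+ mice 2 and 3). On a log2 scale the *Slc25a4* difference was -0.11. *Ucp1* per 1000 adipocyte marker counts ran from -1.21 to -0.654. Apart from fewer mice or genes in a fit, the cause of these differences was not tested.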

Other observations

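Markers of other cell types were measured in the same libraries. B cell markers, 6 genes led by *Ms4a1*, summed to 352, 557, and 563 CPM in *Ebf2*+/+ mice and to 582, 661, and 608 CPM in E165X/+ mice, without overlap (two-sided exact permutation test, *P* = 0.1, the smallest that 3 against 3 mice can give). Endothelial markers, 6 genes led by *Pecam1*, summed to 1150, 1140, and 1080 CPM and to 1040, 1060, and 838 CPM, also without overlap (*P* = 0.1, exact permutation test). T cell markers (175 to 238 against 224 to 259 CPM), neutrophil markers (29.1 to 43.6 against 38.9 to 62.2 CPM), progenitor or fibroblast markers (5130 to 6950 against 6600 to 6720 CPM), and epithelial markers (4.37 to 76.9 against 3.93 to 33.0 CPM) overlapped between the genotypes. What these cell types contributed to the levels of *Ucp2* and *Slc25a5*, which many cells express, was not tested.

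When only deviations from the genotype means were compared over the 6 libraries, the genes most like *Ucp1* were *Panx1* (r = 0.997), *Tbcel*, *Cdc42ep3*, *Cxcl1*, and *Zfp951*, and *Cidea* was not among them. For *Slc25a4* they were *Trpc4ap*, *Lmcd1*, *Rbm20*, *Homer2*, and *Fam118b*, of which *Rbm20* encodes a splicing factor of striated muscle (log2 fold change 1.06, adjusted *P* = 0.783 from edgeR). For *Ucp3*, *Ucp2*, and *Slc25a5* the leading genes were *Sdhaf2*, *Arv1*, and *Ssc4d*.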
